A study of Mus musculus with 6 samples.

Results

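Stefins and cystatins are small proteins that block cysteine proteases. The expression of 6 of their genes was followed here: the stefin A genes Stfa1, Stfa2, Stfa2l1 and Stfa3, the stefin B gene Cstb and the cystatin C gene Cst3. They were picked by name, and Stfa3 was picked for its rise in Tet2-/- cells, so that difference is described and not tested. Of the 6 genes, 5 were measured, among 23185 named genes and 25206 probe sets in all, and Stfa2 had no probe set. RefSeq lists Stfa3 also as an older name of Stfa1, so genes were matched by number and not by symbol. RNA came from thioglycollate-elicited peritoneal macrophages of C57BL/6J mice, drawn 4 days after 1 mL of 4% thioglycollate, an irritant that recruits leukocytes to the peritoneal cavity. The groups were Tet2-/- mice and wildtype littermates, with 3 arrays each, numbered replicates 4, 5 and 6. In both groups the cells were plated without treatment in RPMI with 10% serum, and total RNA was taken after 10 h. Tet2 encodes an enzyme that oxidises 5-methylcytosine in DNA; the sources used here give neither the kind of Tet2 deletion nor the sex or age of the mice.

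Stefins lack a secretion signal and act mainly inside the cell, whereas cystatin C is secreted. Both insert a wedge of conserved loops into the active site of papain-like proteases such as the cathepsins, which degrade proteins in lysosomes and trim antigens in macrophages. In the mouse the stefin A gene has multiplied into a cluster of close copies, and its products are best known from neutrophils and skin.

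All values are log2 levels after RMA, a method that corrects background, equalises arrays and summarises the probes of a gene. Levels of different probe sets are not on a common scale, so each genotype difference compares a gene only with itself across arrays. The words bright and dim, the low end marked below and the summed levels of lists do set probe sets side by side. They are rough guides only. Array medians ran from 2.77 to 2.93, and the array labelled Tet2-/- replicate 6 had the highest median and the lowest mean correlation with the other arrays, 0.982 against 0.986 to 0.989. The macrophage genes Adgre1, the F4/80 antigen, and Cd68, a lysosomal glycoprotein, were bright on every array, at 7.79 to 8.90 and 10.43 to 11.23. The sample titles and the genotype characteristic contradict each other for 4 of the 6 samples, so every direction below refers to the genotype in the title. To mark the low end of the scale, 1354 probe sets of odorant and vomeronasal receptors were used, a set chosen after values were seen. Their mean level had a median of 1.19, and 95% lay below 2.44.

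The stefin A genes lie next to each other on chromosome 16, between Ccdc58 and Casr, and the promoters of the 4 members are close copies. The 250 bases before the start of Stfa3 are shown with those of Stfa1, because these were the members whose arrays separated by genotype, in opposite directions. Sequences are from RefSeq, build GRCm38.p6, read 5′ to 3′ on the gene's strand, with each CG dinucleotide, the site at which DNA is methylated, in capitals. The Stfa3 window is chr16:36455393-36455642 on the minus strand and the Stfa1 window is chr16:36276898-36277147 on the plus strand.
Stfa3: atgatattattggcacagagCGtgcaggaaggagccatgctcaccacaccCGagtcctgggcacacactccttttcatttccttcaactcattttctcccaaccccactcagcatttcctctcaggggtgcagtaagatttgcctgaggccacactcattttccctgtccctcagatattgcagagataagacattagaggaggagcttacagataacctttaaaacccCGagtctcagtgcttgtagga
Stfa1: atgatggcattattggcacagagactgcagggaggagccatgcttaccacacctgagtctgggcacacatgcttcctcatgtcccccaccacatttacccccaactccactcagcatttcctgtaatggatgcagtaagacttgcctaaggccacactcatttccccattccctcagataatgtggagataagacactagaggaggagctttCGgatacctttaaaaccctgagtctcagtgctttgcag

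The Stfa3 and Stfa1 windows were identical at 211 of 246 aligned bases, 85.8%. Stfa3 matched Stfa2 at 82.2% of 247 aligned bases and Stfa2l1 at 84.4% of 244. The unrelated promoter of Cst3 matched Stfa3 at 54.6% of 218 aligned bases. The Stfa3 window holds 3 CG dinucleotides, which begin 230, 200 and 21 bases before the start, while Stfa1 holds 1, 38 bases before it, and Stfa2 and Stfa2l1 hold 0. The median over all RefSeq promoters of this length was 6, and 37.8% of them held 3 or fewer. The Cst3 window holds 8. DNA methylation was not measured.

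The 60 bases next to the start show what the 4 stefin A members share. The capitals mark TTTAAA, a T and A rich element that reads the same on both strands. The windows are chr16:36455393-36455452 (minus) for Stfa3, chr16:36277088-36277147 (plus) for Stfa1, chr16:36408364-36408423 (minus) for Stfa2 and chr16:36156751-36156810 (plus) for Stfa2l1.
Stfa3: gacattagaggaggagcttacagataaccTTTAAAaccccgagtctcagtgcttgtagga
Stfa1: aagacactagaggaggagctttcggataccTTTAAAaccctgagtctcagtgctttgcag
Stfa2: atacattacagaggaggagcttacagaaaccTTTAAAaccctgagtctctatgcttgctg
Stfa2l1: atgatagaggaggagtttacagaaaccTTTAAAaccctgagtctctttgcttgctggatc

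TTTAAA began 31 bases before the start of Stfa3, 30 before Stfa1, 29 before Stfa2 and 33 before Stfa2l1. Among all promoters, 12.1% held this element anywhere in the 250 bases. The 250 bases before each start were searched on both strands, so a match may lie outside the 60 bases shown. The common form TATAAA, found in 12.4% of all promoters, was in none of the 4 members. The element GAGGAA, which holds the core read by ETS factors such as PU.1, was found on the opposite strand of Stfa3, Stfa1 and Stfa2 and on both strands of Stfa2l1, and in 23.3% of all promoters. TTGCNNAA, a form read by C/EBP factors, was found in the 250 bases of Stfa1 and not in those of Stfa3, Stfa2 or Stfa2l1, and 9.57% of promoters held it. These matches describe the letters only. The files do not give the array probes, so whether a probe set of a stefin A gene also reads its paralogues was not tested.

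Stfa3 showed the largest difference of the 5 measured members. Its log2 level was 4.27, 2.96 and 3.41 in wild-type replicates 4, 5 and 6, and 5.55, 5.66 and 5.55 in the Tet2-/- replicates. The groups did not overlap, and the lowest Tet2-/- array stood 1.28 above the highest wild-type array. Wild-type cells averaged 3.55 ± 0.666 (SD, n = 3). Tet2-/- cells averaged 5.59 ± 0.0635 (SD, n = 3). The means differed by 2.04 (standard error 0.285), or 4.11-fold. Wild-type replicates 5 and 6 lay below 3.74, under which the mean levels of 99% of receptor probe sets fell. RMA compresses differences near background, so the fold holds for these values only. The wild-type arrays ranged over 1.31 log2 units and the Tet2-/- arrays over 0.11. In these bulk samples, more cells that express Stfa3 and more Stfa3 RNA per expressing cell in the Tet2-/- group cannot be told apart.

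By mean difference Stfa3 was not the first of all probe sets but number 4. The immunoglobulin segments Ighj4 at 2.10 and Igkv12-89 at 2.09 and the lipoxygenase gene Alox15 at 2.08 lay above it, and Plac8 at 1.77 and Spink2 at 1.72 followed. These genes are named because they lie next to Stfa3 in this order. For Ighj4, Igkv12-89 and Alox15 the groups overlapped. By the gap between the groups, Stfa3 was first at 1.28, ahead of Plac8 at 0.79 and St8sia6 at 0.67. These ranks restate the choice of Stfa3.

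**Figure D1:**
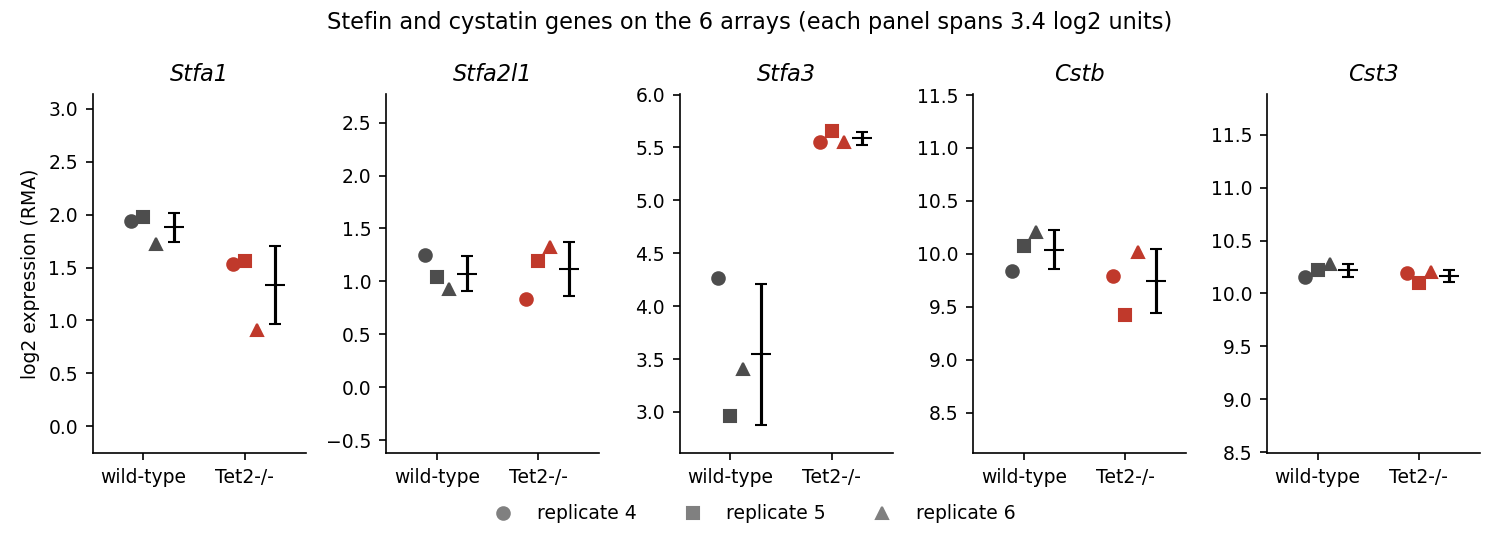
Log2 expression of the 5 measured genes on each array (vertical axis, 3.4 log2 units in every panel) by genotype, with 1 point per array, its shape giving the replicate number, and the mean ± SD (n = 3) in black beside the points. The Tet2-/- arrays lay between 5.55 and 5.66 for Stfa3, above wild-type arrays at 2.96 to 4.27, while Cst3 spanned 0.18 over all 6 arrays.

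Stfa1, another stefin A gene, ran the other way at the low end of the scale. Its levels were 1.94, 1.98 and 1.72 in wild-type replicates 4, 5 and 6 and 1.53, 1.56 and 0.91 in Tet2-/-. The groups did not overlap, by a gap of 0.16, and Tet2-/- replicate 6 was the lowest array. The difference was -0.55 with a standard error of 0.193 (0.685-fold), and it was -0.335 without Tet2-/- replicate 6. All 6 values lay below 2.44, under which 95% of the receptor probe sets fell. Stfa1 ranged over 1.07 log2 units across the 6 arrays, and 95% of receptor probe sets ranged over up to 1.09.

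Stfa2l1, a stefin A-like copy, sat at the low end in both genotypes. It measured 1.25, 1.04 and 0.93 in wild-type replicates 4, 5 and 6 and 0.83, 1.19 and 1.32 in Tet2-/-. The groups overlapped, and the difference was 0.04 with a standard error of 0.166.

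Cstb encodes stefin B, an inhibitor present in most cells, and was bright on all arrays. Its levels were 9.84, 10.07 and 10.21 in wild-type replicates 4, 5 and 6 and 9.79, 9.42 and 10.02 in Tet2-/-. The groups overlapped, with Tet2-/- replicate 5 the lowest. The difference was -0.30 with a standard error of 0.182, and it was -0.135 without Tet2-/- replicate 5.

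Cst3 encodes the secreted inhibitor cystatin C and was the steadiest member. It measured 10.16, 10.22 and 10.28 in wild-type replicates 4, 5 and 6 and 10.19, 10.10 and 10.20 in Tet2-/-. The groups overlapped and the difference was -0.06 with a standard error of 0.123. Over the 6 arrays Cstb and Cst3 ran together (Pearson r = 0.95), within a range of 0.79 for Cstb and 0.18 for Cst3. Stfa3 ran against Stfa1 (r = -0.706), Cstb (r = -0.681) and Cst3 (r = -0.646). These correlations describe 6 arrays that share the same genotype split.

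Of the 5 measured members, 2 had groups that did not overlap. Stfa3 was wholly higher in Tet2-/- cells, as were 3.33% of all probe sets, and Stfa1 wholly lower, as were 4.07%. Either direction together made up 7.41%. As a background, limma's test was run over all 25206 probe sets, members included. At an adjusted p of 0.05, 0 of them (0%) passed. An unadjusted p under 0.05 was reached by 910 (3.61%), of which 431 (1.71%) were higher in Tet2-/- cells. The count past the adjusted test was 2 with array weights. It was 19 when Tet2-/- replicate 6 was left out, and 1 when wild-type replicate 4 was. These counts cover all probe sets and do not say whether a member was among those that passed. The median difference was -0.06 over the 5 members and 0.00 over all probe sets. Since the genotype contrast chose Stfa3, nothing is read from these counts. If samples were grouped by the genotype characteristic instead of the title, the Stfa3 difference would be -1.11, with the array at 5.66 placed beside those at 2.96 and 3.41.

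Most other measured genes of the stefin A locus sat at the low end of the scale. Between Csta1 and Stfa3 the RefSeq table lists 12 protein-coding genes, of which 8 were measured. Stfa2, Cstdc4, Cstdc5 and Gm7260 had no named probe set. In 5 of the 8 (Csta1, Stfa2l1, Csta3, Csta2 and Stfa1) every array lay below 2.44.

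Among the stefin A copies that are not members, Csta1 ran from 1.05 to 1.34 over the 6 arrays, Csta3 from 0.89 to 1.49 and Csta2 from 1.09 to 1.75, all with overlapping groups. Their differences were 0.05, 0.03 and -0.18, and 0 of the 3 passed limma's test (0 at an unadjusted p under 0.05). Cstdc3 and Cstdc6 lie in the same cluster and are named after their values were seen. Cstdc3 differed by 0.14 and overlapped. Cstdc6 was at 2.70, 2.21 and 2.50 in wild-type replicates 4, 5 and 6 and at 2.83, 2.88 and 3.14 in Tet2-/-, so that the means differed by 0.48 (standard error 0.165). Every Tet2-/- array of Cstdc6 thus lay above wild-type, by a gap of 0.13, which 3.33% of all probe sets did in this direction. Cstdc6 did not pass (limma adjusted p = 0.998).

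The genes on both sides of the cluster differed by at most 0.27. On the Stfa3 side, Casr, the calcium-sensing receptor, differed by 0.10, the co-stimulatory ligand Cd86 by 0.27 and Ildr1 by 0.03. On the Csta1 side, Ccdc58 differed by -0.11, the mitochondrial protein gene Fam162a by -0.08 and Wdr5b by 0.26. None of these 6 neighbours passed (limma adjusted p = 0.998 for each), and in each the groups overlapped or touched.

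**Figure D2:**
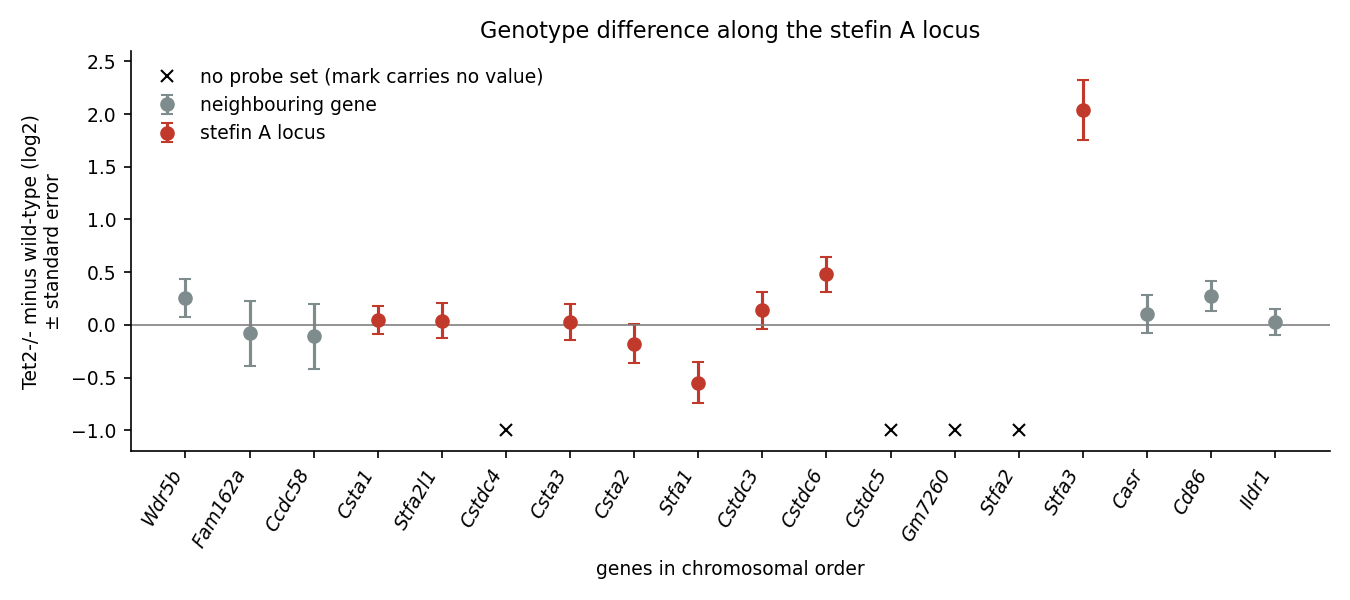
Difference between Tet2-/- and wild-type means (vertical axis, log2, ± standard error of the fit) for the genes of the stefin A locus in red and 3 measured neighbours on each side in grey, in chromosomal order (horizontal axis); crosses mark genes with no probe set and carry no value. Stfa3 stands at 2.04, and the other measured genes lie between -0.55 and 0.48.

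The other secreted cystatins, the type 2 relatives of Cst3, had dim probe sets in wild-type and Tet2-/- cells alike, with levels of 1.07 to 2.58. Of 11 listed, 10 were measured, 7 higher, 2 lower and 1, Cst11, equal in mean. By limma's test 0 of 10 passed, and 0 had an unadjusted p under 0.05; the median difference was 0.11, against 0.00 over all probe sets, and it was -0.013 without Tet2-/- replicate 6 and 0.007 with array weights. Cst7, which encodes cystatin F, an inhibitor made by immune cells and active in their lysosomes, was at 2.38, 2.10 and 2.20 in wild-type replicates 4, 5 and 6 and 2.20, 2.50 and 2.58 in Tet2-/-, with overlapping groups. Cst6, which encodes cystatin M/E, differed by 0.15 without overlap, at 1.34 to 1.39 in wild-type and 1.44 to 1.55 in Tet2-/- cells. Of all probe sets, 3.33% were wholly higher in Tet2-/- cells. The genes Cst9, Cst10, Cst12, Cst13, Cstdc1, Cstdc2 and Cstl1, several of them known from the reproductive tract, differed by -0.11 to 0.24.

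Kininogens and fetuins carry cystatin domains in large plasma proteins made by the liver. All 5 listed were measured, 2 higher and 3 lower, with 0 past limma's test and 0 at an unadjusted p under 0.05. The largest difference was that of Kng1, the kininogen gene, at 0.47; it was 1.31, 1.13 and 1.31 in wild-type replicates 4, 5 and 6 and 1.41, 1.39 and 2.37 in Tet2-/-. The groups of Kng1 did not overlap, by a gap of 0.08, as 3.33% of all probe sets did in this direction. Tet2-/- replicate 6 stood well above the other arrays there. Kng2, Ahsg, Fetub and Hrg differed by -0.16, -0.07, -0.14 and 0.05.

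The proteases that these inhibitors act on split between higher and lower means. Of 11 cysteine cathepsin and legumain genes, 6 were higher and 5 lower in Tet2-/- cells, with a median of 0.02, and 0 passed limma's test (0 at an unadjusted p under 0.05). Ctsl, the endopeptidase cathepsin L, was at 10.91, 10.96 and 11.07 in wild-type replicates 4, 5 and 6 and 10.76, 10.37 and 10.78 in Tet2-/-. Its groups did not overlap, as in 4.07% of all probe sets in this direction. Its means differed by -0.34 (standard error 0.152, limma adjusted p = 0.998). Ctsb, which encodes cathepsin B, differed by -0.10 and Ctss, the cathepsin that trims the class II invariant chain, by 0.02.

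Ctsc, the dipeptidase that activates granule proteases, was at 8.20, 7.79 and 7.92 in wild-type replicates 4, 5 and 6 and at 8.42, 8.82 and 7.89 in Tet2-/-. The groups overlapped, because Tet2-/- replicate 6 lay within wild-type, and the difference was 0.41. Ctsk, the collagen-degrading cathepsin K, differed by -0.37, with Tet2-/- replicate 5 the lowest array at 8.13. Ctsf differed by 0.27, its groups not overlapping by 0.02, as in 3.33% of all probe sets in this direction. Ctsh, Ctsz, Ctso, Ctsw and the legumain gene Lgmn, an asparagine-specific protease that cystatin C also blocks, differed by 0.02, -0.07, -0.07, 0.09 and 0.03.

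**Figure D3:**
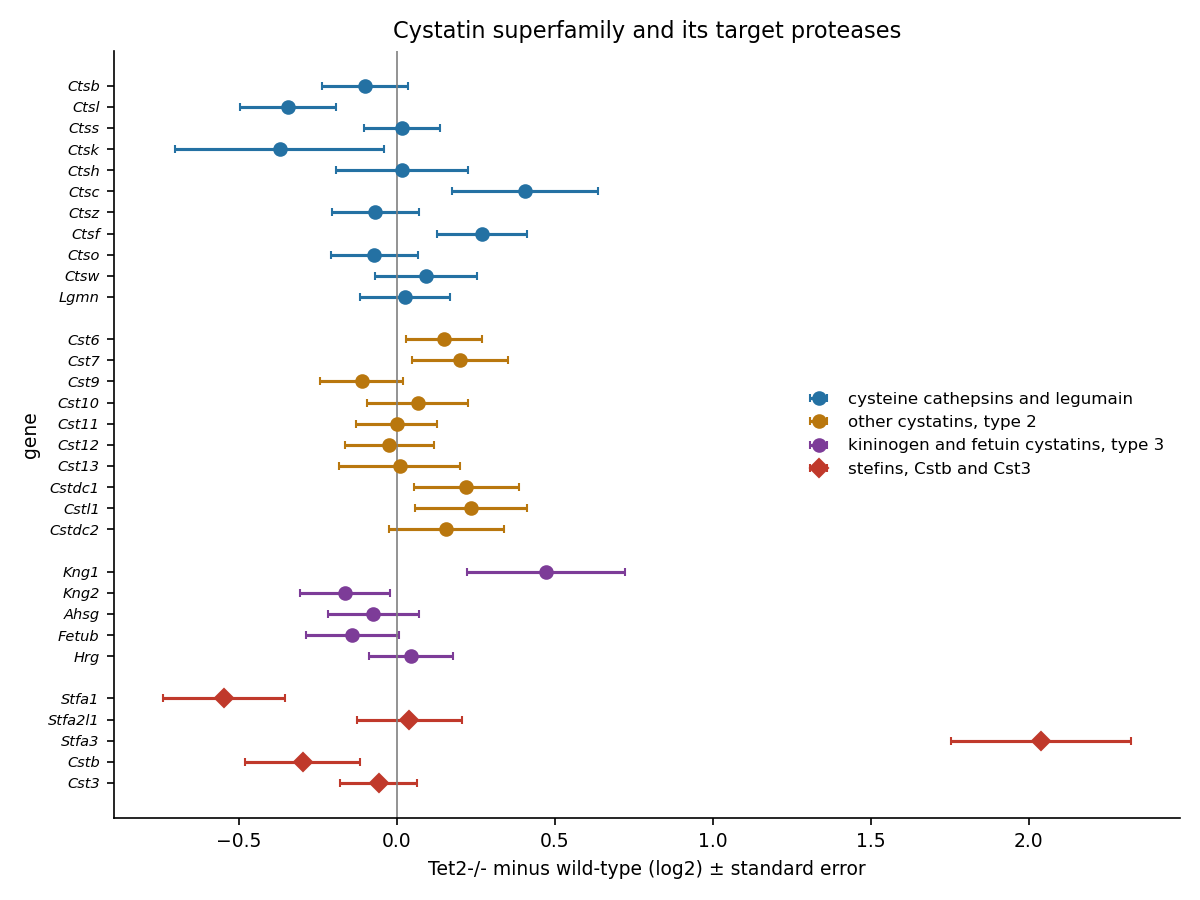
Difference between Tet2-/- and wild-type means (horizontal axis, log2, ± standard error of the fit) for each measured gene (vertical axis) of the cathepsin, type 2 cystatin and type 3 cystatin lists and for the 5 members. All genes but Stfa3 lie between -0.55 and 0.47.

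Inhibitors of other protease classes gave a median difference of 0.14. Of 12 measured, 8 were higher and 4 lower, and 0 passed limma's test. An unadjusted p under 0.05 was reached by 1 (Spint2, a serine protease inhibitor, at 0.44), against 3.61% of all probe sets. Slpi, the secreted inhibitor of leukocyte elastase, named after its values were seen, differed by 0.56, but its Tet2-/- arrays ran from 7.16 to 9.23 and held the wild-type range of 7.29 to 7.97. Serpinb2, plasminogen activator inhibitor 2, differed by 0.53, Serping1, the C1 inhibitor, by 0.34 and Serpinb9, an inhibitor of granzyme B, by -0.40, all with overlapping groups. Leaving out replicate 5 of wild-type gave a list median of 0.06. Leaving out replicates 4, 5 and 6 of Tet2-/- in turn gave 0.09, 0.02 and 0.26.

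Stefin A genes are known from neutrophils, so neutrophil markers were set beside Stfa3. Of 15 measured, 10 were higher and 5 lower, with a median of 0.14, and 0 passed limma's test. An unadjusted p under 0.05 was reached by 1, Mpo, against 3.61% of all probe sets. Leaving out Tet2-/- replicate 6 gave a median of 0.05 and leaving out wild-type replicate 6 gave 0.08. It was 0.09 with array weights or without Tet2-/- replicate 4. The log2 of their summed level was 8.17 to 8.34 in wild-type and 8.37 to 8.47 in Tet2-/- cells, so the groups did not overlap. Such a sum follows the brightest genes, here S100a8, Mmp8 and Csf3r, and the groups of each of these overlapped. Sums of other lists separated too. That of dendritic cell markers was 4.83 to 4.94 in wild-type and 4.95 to 5.06 in Tet2-/- cells, and the monocyte sum below was also higher. The eosinophil sum was lower, at 4.8 to 5.38 against 5.61 to 5.97 in wild-type. It followed the brightest gene of that list, Siglecf, at 5.37, 5.58 and 5.02 in wild-type replicates 4, 5 and 6 and 4.65, 3.58 and 4.12 in Tet2-/-. The list's other measured genes, Prg2, Epx, Ear6, Ccr3 and Il5ra, differed by -0.01, 0.03, 0.03, -0.07 and 0.27. Prg2 and Epx are named after their values were seen. Of the 15 neutrophil genes, 1 (Mpo) was wholly higher and 1 (Mmp9) wholly lower, against 3.33% and 4.07% of all probe sets. The levels of the 15 genes spread widely, and all are given here, Camp, Retnlg, Ltf, Cxcr2, Elane, Lcn2 and Mmp8 among them after their values were seen. The secreted and granule protein genes S100a9 at 1.64 to 2.34, Camp at 1.24 to 1.63, Retnlg at 1.37 to 1.71 and Ltf at 1.76 to 2.18 lay below 2.44 on all arrays. Ly6g, a surface antigen gene, ran from 1.57 to 2.87, Ngp from 2.40 to 2.95, the chemokine receptor gene Cxcr2 from 2.43 to 2.87, the elastase gene Elane from 2.44 to 2.84, Lcn2 from 2.59 to 3.28 and Mpo, myeloperoxidase, from 1.75 to 2.59. Prtn3, the proteinase 3 gene, ran from 2.83 to 4.04 and Mmp9, a gelatinase, from 3.48 to 4.10. Brighter were the granule collagenase gene Mmp8 at 5.26 to 6.63 and the receptor gene Csf3r at 6.16 to 6.98, both with overlapping groups. S100a8, a calcium-binding protein gene, was at 6.22, 6.43 and 6.23 in wild-type replicates 4, 5 and 6 and 5.79, 6.42 and 7.19 in Tet2-/-. Prtn3 differed by 0.56, Mpo by 0.46, Mmp9 by -0.30, Csf3r by 0.30 and Mmp8 by -0.11. The part of neutrophil RNA in the Stfa3 difference was not tested.

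The marker lists of B cells, resident large peritoneal macrophages and monocytes had median differences of 0.41, 0.56 and 0.53, and Tet2-/- replicate 6 gave the lowest summed level of its group in each. The log2 summed level of 11 B-cell markers, 10 of them higher, was 7.12 to 7.52 in wild-type arrays and 7.69, 8.63 and 6.84 in Tet2-/- replicates 4, 5 and 6. For 13 markers of resident large peritoneal macrophages, 11 of them higher, it was 9.24 to 9.72 against 10.27, 10.70 and 9.25. For 7 markers of monocytes and small peritoneal macrophages, 5 of them higher, it was 7.24 to 7.63 against 8.78, 9.18 and 7.96. In Tet2-/- replicate 6 the B-cell sum lay below every wild-type array, the resident macrophage sum within them and the monocyte sum above them. The part of B-cell and resident macrophage RNA in the Stfa3 difference was not tested.

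Single genes of these lists did not all follow the order of the sums. Cd79a, a B-cell receptor chain, was at 4.55, 5.22 and 2.99 in Tet2-/- replicates 4, 5 and 6, and Ms4a1, the CD20 gene, at 2.84, 4.21 and 2.18. Cd79b, the partner chain of Cd79a, differed by 1.55. The inhibitory receptor gene Cd22, also on this list, was lower on every Tet2-/- array, as were 4.07% of all probe sets. It was at 5.50, 5.29 and 5.23 against 6.07 to 6.21 in wild-type, a difference of -0.80 (standard error 0.134, limma adjusted p = 0.483). Of the resident macrophage genes, Alox15, Icam2, Cd5l and Timd4 differed by 2.08, 1.06, 0.74 and 0.56. Only Cd5l of this list had groups that did not overlap, by 0.04, as 3.33% of all probe sets did in this direction. The 2 lower genes of the list, Garnl3 and Vsig4, named after their values were seen, differed by -0.11 and -0.07. Ccr2, the monocyte chemokine receptor, was at 8.12, 8.47 and 7.36, above wild-type at 6.51 to 6.77. Plac8 was at 3.81, 6.43 and 3.94, so replicate 6 lay above replicate 4, and wild-type was at 2.87 to 3.02. Cx3cr1 and Ly6c2 of the same list differed by 1.11 and 0.53. The other measured genes of that list, Cd226, Mgl2 and Irf4, named after their values were seen, differed by 0.08, -0.02 and -0.23. At an unadjusted limma p under 0.05, in either direction, the B-cell list held 4 of 11 genes, among them Cd22, which was lower. The resident macrophage list held 4 of 13 and the monocyte list 3 of 7, against 3.61% of all probe sets. In any list 0 genes passed limma's adjusted test. The lists were chosen with earlier results of these data known, so nothing is read from these counts. These counts moved with single arrays. Without Tet2-/- replicate 6 they were 6, 10 and 4, when 2489 of all probe sets reached that level in place of 910. The resident macrophage count was 2 without wild-type replicate 5 or 6 or without Tet2-/- replicate 4 or 5, and 10 with array weights. Without Tet2-/- replicate 5 the medians of the 3 lists were 0.23, 0.33 and 0.35, and without Tet2-/- replicate 6 they were 0.65, 0.96 and 0.80. The part of monocyte-related RNA in the Stfa3 difference was not tested.

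Lists for other cells gave medians of 0.05 for 8 mast cell markers, 0.01 for 6 eosinophil markers, 0.03 for 8 T and NK cell markers, 0.08 for 6 dendritic cell markers, 0.03 for 10 mesothelial and fibroblast markers and -0.05 for 9 macrophage markers. Each of these medians changed sign when 1 or another array was left out, that of the macrophage markers running from -0.14 to 0.13. Among them Siglecf, a lectin of eosinophils and some macrophages, at -1.21, and Mrc1, the mannose receptor, at -0.59, had an unadjusted p under 0.05 without passing (limma adjusted p = 0.879 and 0.998). Of all probe sets, 3.61% reached that unadjusted level.

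**Figure D4:**
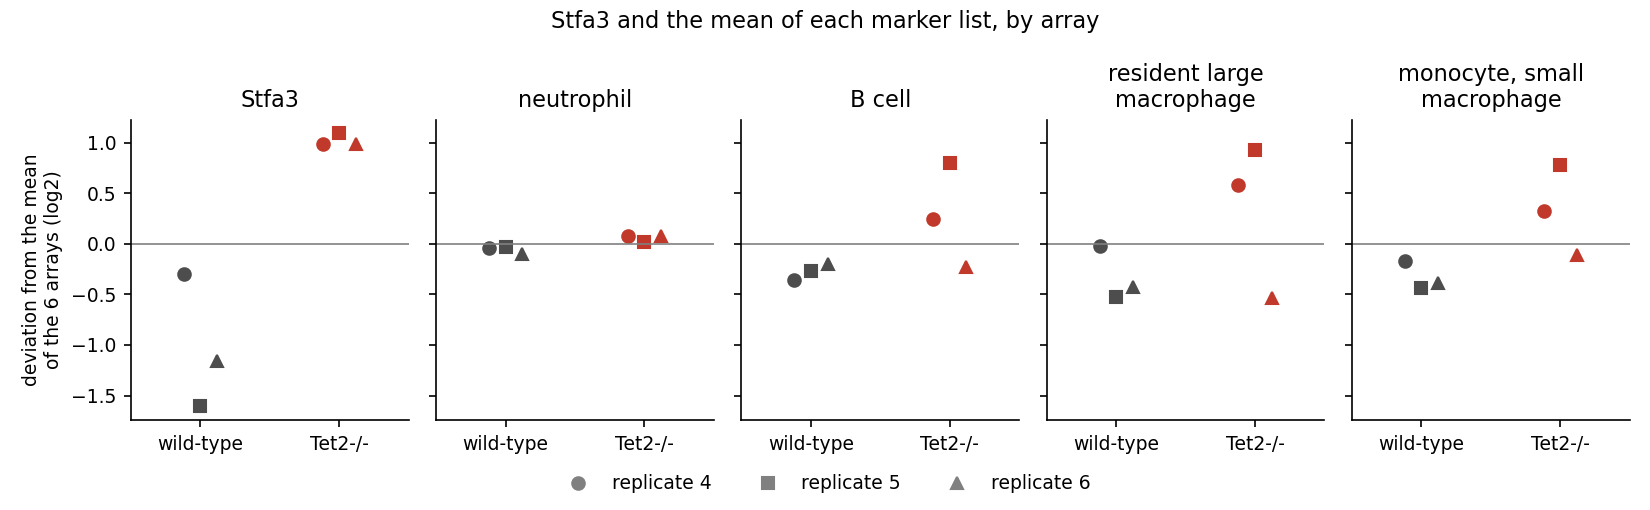
Deviation of each array from the mean of the 6 arrays (vertical axis, log2) for Stfa3 and for the mean of 4 marker lists, by genotype, 1 point per array with its shape giving the replicate number. Stfa3 stood at 0.98, 1.09 and 0.98 in Tet2-/- replicates 4, 5 and 6, the B-cell mean at 0.25, 0.80 and -0.23 and the resident macrophage mean at 0.59, 0.93 and -0.54.

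The genes whose pattern was most like that of Stfa3 were sought among 1899 other named genes that spanned at least 1 log2 unit over the 6 arrays. The 5 with the highest Pearson r were Chst1, a carbohydrate sulfotransferase (0.955), Hpgd, the enzyme that inactivates prostaglandins (0.948), the zinc finger gene Zfp955b (0.942), the cysteinyl leukotriene receptor Cysltr1 (0.915) and the formyl peptide receptor Fpr2 (0.911). Hpgd was at 5.25, 4.79 and 4.64 in wild-type replicates 4, 5 and 6 and 5.93, 6.35 and 5.75 in Tet2-/-, so its wild-type replicate 4 was the highest of its group, as for Stfa3. Chst1 was at 3.62, 2.79 and 2.92 in wild-type, the order in which Stfa3 ran there, with Tet2-/- values of 3.77, 4.14 and 3.84. These r values rest on 6 arrays and a search over many genes, and they describe these arrays only. The arrays share the genotype split for which Stfa3 was picked, and all 5 genes had higher means in Tet2-/- cells, by 0.57 to 1.15. A high r with Stfa3 therefore partly restates that choice.

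For Stfa1, the other member that spanned 1 log2 unit, the 5 were Igip (0.983), the formin gene Daam1 (0.98), Armc10 (0.979), the Toll-like receptor gene Tlr6 (0.966) and the coagulation factor gene F7 (0.954). Each of them had its lowest value in Tet2-/- replicate 6, as Stfa1 did. Tlr6 was at 4.89, 4.77 and 4.68 in wild-type replicates 4, 5 and 6 and at 3.88, 3.82 and 2.91 in Tet2-/-.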

How the data were processed

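The authors deposited log2 values of 25206 probe sets on 6 arrays. The submitters' processing notes name RMA and affy 1.36.1. This method corrects background, equalises the arrays' distributions and summarises probes, and it compresses differences near background. The log2 scale was read from the value range and the method. Whether arrays were normalized jointly, the probe definition and the genome build: not given in the sources used here. Probe sets were named by gene number through the platform annotation, which gave 1 gene for 23185 and none for 2021. All 23185 were found in the RefSeq table of GRCm38.p6. That table also gave gene order.

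Groups came from the sample titles, because the genotype characteristic contradicts the title for 4 of 6 samples. limma 3.58.1 in R 4.3.3 (lmFit, eBayes, two-sided, Benjamini-Hochberg over all probe sets, threshold 0.05) was fitted without covariates and tested on simulated data. The labels call the samples biological replicates but do not tie each to an animal. The p-values therefore reflect only how these samples varied. The 3 arrays per group limit the precision of every value. Same-numbered replicates were not treated as pairs, since their deviations from the group means correlated at 0.15, -0.215 and 0.112.

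The genes, marker lists and protease lists were chosen with earlier results of these data known. Named genes were the members, all listed stefins, cystatins and cathepsins, up to 4 genes per other list by smallest p plus defining markers, 3 measured neighbours on each side of the locus, and, for members spanning at least 1 log2 unit, the 5 genes of highest Pearson r among genes spanning as much. Genes named outside this rule are marked as such. Promoters came from RefSeq, as the 250 bases before each start. Pairs were aligned globally (identity over aligned bases). Other settings are given in the closing section.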

Additional observations from a re-analysis of the deposited data

How the results depend on the processing

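The settings tried were grouping by the genotype characteristic, the replicate block, robust variances with an intensity trend, weighted arrays, arrays centred on their median, quantile normalization once more, a filter on low values and leaving out each array. Grouping by the characteristic put Stfa3 at -1.11, Stfa1 at 0.29, Cstb at 0.017 and Cst3 at 0.017. Under the other settings these 4 kept their sign, and each value moved by less than the SD between replicates. Leaving out single arrays gave 1.75 to 2.40 for Stfa3, -0.66 to -0.335 for Stfa1, -0.435 to -0.135 for Cstb, -0.09 to -0.025 for Cst3 and -0.06 to 0.18 for Stfa2l1, whose sign was not stable. With the replicate block the Stfa3 difference was 2.04 with a standard error of 0.249, and 0 probe sets passed. The count past limma's adjusted p of 0.05, 0 in the main analysis, was 2 with array weights and 0 to 19 when single arrays were left out: leaving out Tet2-/- replicate 6 gave 19, and leaving out wild-type replicate 4 gave 1. The count of probe sets whose groups do not overlap was 914 of 12597 after the filter on low values, against 1867 of 25206, because fewer were tested. It was 3537 to 6484 when single arrays were left out, because fewer arrays have to separate. Of 192 list medians under other settings, 171 moved by less than the SD between replicates and 21 by more. Stfa1 and Stfa2l1 did not pass the filter on low values. Scanner files were not used here, so signal over background could not be checked per gene.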
